A study of Mus musculus with 2 samples.

Results

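Enzymes that write or remove acetyl and methyl groups on histones were compared between RAW264.7 cells carrying miR-155 and cells carrying an empty vector. The members were all genes whose platform symbol is Hdac, Sirt, Kat, Kmt, Kdm, Setd or Prmt followed by a number, and 68 of the 18193 genes named by a single-symbol probeset met that rule. Each gene was represented by its brightest probeset, the one with the highest mean log2 signal over the 2 arrays, so the measured values of both arrays chose the probesets, and the gene set itself was picked with earlier results of these data known. The differences below are therefore given as a description. RAW264.7 is a mouse macrophage-like line. In 1 group it had been infected with the retroviral vector MSCV encoding mir-155, and in the other with MSCV alone. Both were kept in puromycin (7 µg/ml) and then cloned by limiting dilution. Each array, of the Affymetrix type, read a pool of RNA from 5 clones, so a group has 1 array, no replicate and no test. Differences between the clones of the pools and an effect of the microRNA cannot be told apart, nor can fewer cells that express a gene and less of its RNA per cell.

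Acetyl groups on histone lysines are added by acetyltransferases (the Kat genes) and removed by deacetylases (the Hdac genes and the NAD-dependent sirtuins), and acetylated histones mark active promoters and enhancers. Lysine methyl groups are added by the Kmt and Setd enzymes and removed by the Kdm enzymes, and their meaning depends on the residue, with H3K4 methylation at active genes and H3K9 or H3K27 methylation at silent ones. The Prmt enzymes methylate arginines. In macrophages such enzymes are known to set which inflammatory genes can respond to a stimulus, Hdac3 and Kdm6b being well studied examples. A microRNA pairs through its seed, bases 2 to 8, with sites in the 3′ untranslated region of an mRNA, and usually lowers the level of that mRNA modestly.

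The RefSeq sequences of the expressed microRNA, in build GRCm38.p6, are shown because they define the manipulation, with the seed in capitals. The 5p arm lies at chr16:84714143-84714165 and the 3p arm at chr16:84714182-84714202, both on the plus strand.
mmu-miR-155-5p: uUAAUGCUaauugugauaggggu
mmu-miR-155-3p: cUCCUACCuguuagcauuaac
The DNA letters that pair with the whole 5p seed are AGCATTA, and those for the 3p seed are GGTAGGA. Untranslated regions of the members were not analysed here, so no member is called a carrier of such a site.

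The deposited signals are linear intensities, with medians of 14.1 over 45101 probesets on the miR-155 array and 15.4 on the empty-vector array. Of 11 macrophage markers, 10 reached a signal of 25.8 on the miR-155 array and 10 on the empty-vector array, with summed signals of 22987 on the miR-155 array and 22095 on the empty-vector array, and the exception was the mannose receptor Mrc1. Single markers were past 1.5-fold both ways, Cd14 (1.26 as the log2 ratio of miR-155 over empty vector) and Fcgr1 (0.66) higher with miR-155, and Adgre1 (−0.71) and Spi1 (−0.61) lower. Of 32 markers of other blood cells and stroma, 5 reached it on the miR-155 array and 4 on the empty-vector array. The B-cell markers Cd79a, Cd79b, Ms4a1 and Pax5 were below it on both arrays, although Ighm read 1523 with miR-155 and 1685 with empty vector. On the miR-155 array the summed signal was 1568 for B-cell, 115 for T and NK cell, 27.2 for neutrophil and mast cell, 56.7 for stromal and 97.3 for erythroid and megakaryocyte markers. On the empty-vector array these sums were 1717, 112, 42.4, 64.6 and 90.3. Their part in the results below was not tested.

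The enzymes as a whole differed little between the arrays, as most genes did. The comparison used the 9097 genes in the upper 50% of mean log2 signal, which is a geometric mean of at least 25.8, here called the signal floor. Of the 68 members, 62 passed this filter and 6 did not. None of the 62 had a reading below the floor on either array. Only Kdm4c was higher by 1.5-fold or more with miR-155, which is 1 of 62 members beside 5.32% of all genes kept. Kdm7a, Kmt5a and Kat6b were at least 1.5-fold lower, 3 of 62 beside 5.99% of all genes kept. At 2-fold, 0 members were higher, beside 1.92% of all genes, and 1 member, Kdm7a, was lower, beside 1.43%. The other 58 members lay within 1.5-fold, as did 8068 of the 9097 genes kept. Of the members kept 24, or 38.7%, differed by under 10%, beside 41.5% of all genes kept. The median absolute log2 ratio was 0.21 over the members and 0.18 over all genes kept. The median log2 ratio, miR-155 over empty vector, was −0.12 over the members and −0.048 over all genes kept. Of the 62 members 41, or 66.1%, had a ratio below 0, beside 58% of all genes kept. With array medians equalised, that is with the median ratio of all probesets set to 0, which adds the same amount to every ratio, the share below 0 was 56.5% of members and 45.1% of all genes kept.

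**Figure D1:**
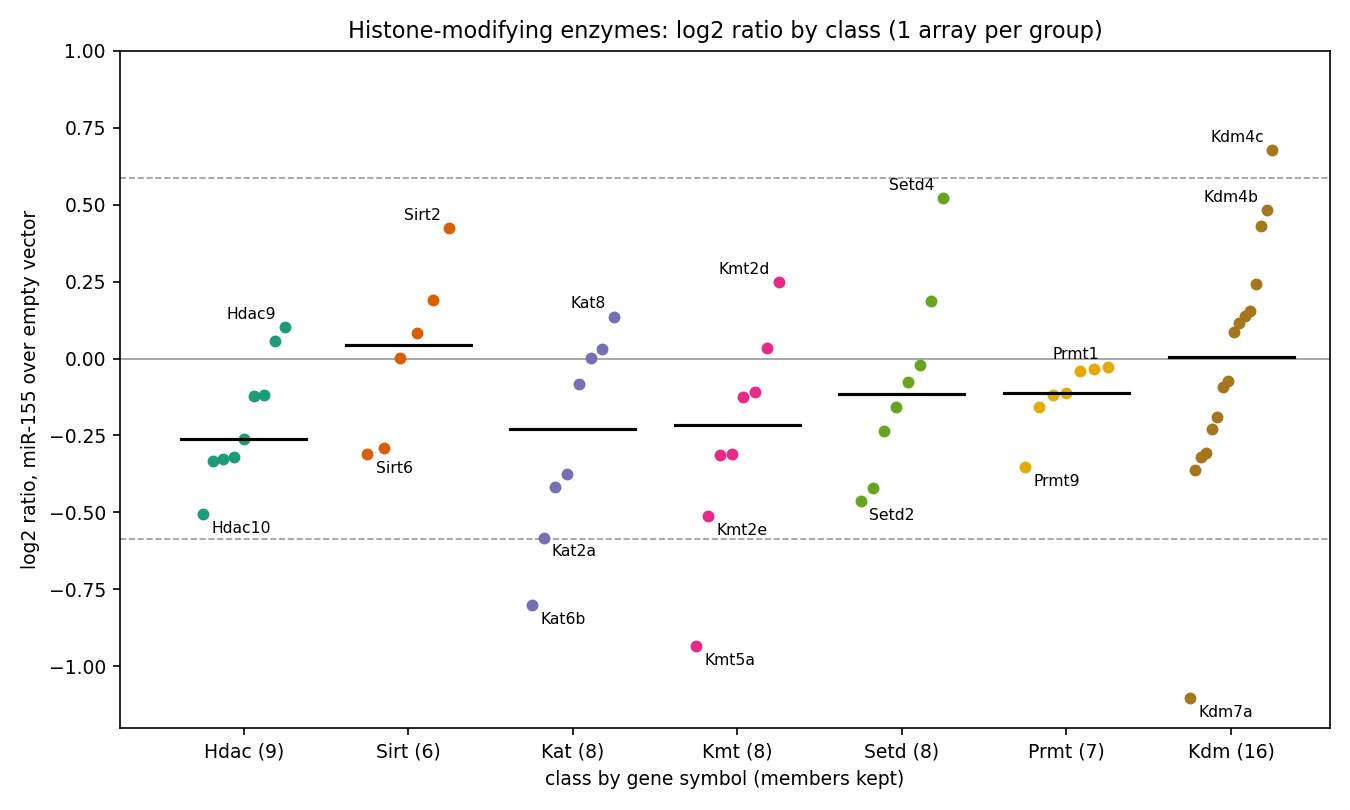
Log2 ratio of signal, miR-155 over empty vector, for the 62 members kept, by class along the x axis. Each point is a gene by its brightest probeset, thick bars are class medians, dashed lines mark 1.5-fold, and the number of members is in brackets; 3 points lie under the lower line (Kdm7a, Kmt5a, Kat6b) and 1 above the upper (Kdm4c).

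As a yardstick for a single gene, the robust SD of the ratio among the 500 genes nearest in signal was used, here the local SD. It ranged from 0.14 to 0.59 at the members, with the widest values at the dimmest. At least 2 local SDs below the local median lay 4 members, Kmt5a, Kdm7a, Kat2a and Kmt2e, beside 4.52% of all genes kept. At least that far above lay 0 members, beside 5.45% of all genes. Kat6b and Kdm4c, although past 1.5-fold, are dim and stayed inside that band. Neither yardstick measures the variation between clones or cultures.

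**Figure D2:**
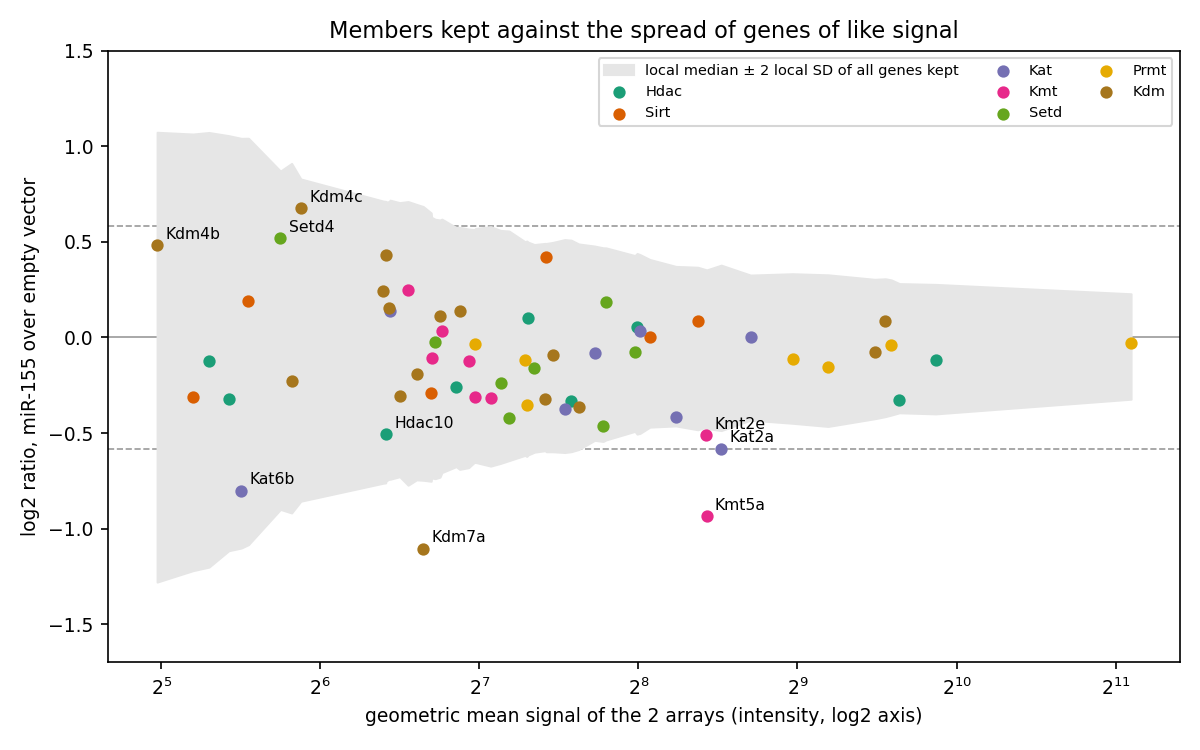
Log2 ratio, miR-155 over empty vector, against the geometric mean signal of the 2 arrays on a log2 axis for the 62 members kept, coloured by class. The grey band is the local median ± 2 local SDs of all genes kept; Kmt5a, Kdm7a, Kat2a and Kmt2e lie below it and 0 members lie above.

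Among deacetylases, the classical Hdac genes were mostly slightly lower in the miR-155 array. Of 11 on the array 9 were kept, and 7 of these had a ratio below 0, beside 58% of all genes kept. None of the 9 reached 1.5-fold, and the class median was −0.26. It was −0.18 with array medians equalised, −0.15 with no filter and with an offset of 50, and −0.12 both in the upper 25% of signal and with the mean of all probesets of a gene.

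The nuclear class I enzymes, catalytic subunits of co-repressor complexes, ranged from −0.33 to 0.06. Hdac1 read 898 in the miR-155 array and 975 in the empty-vector array. Hdac2, its partner in the NuRD, SIN3 and CoREST complexes, read 713 with miR-155 and 894 with empty vector, a log2 ratio of −0.33 (local SD 0.17), and its further probeset gave −0.28. Hdac3, the catalytic subunit of the NCoR and SMRT complexes, read 260 with miR-155 and 250 with empty vector. Hdac8 read 37.8 with miR-155 and 41.1 with empty vector. Hdac2 had the largest difference of the 4. Its probeset name and that of Hdac3 end in _s_at, which, like _x_at, marks probes that can match more than 1 transcript. Of the members kept 9 have such a probeset, the others being Kat14, Kat2b, Kat8, Kdm1a, Kdm2b, Prmt2 and Prmt5.

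The class IIa enzymes, which shuttle between nucleus and cytoplasm, went both ways. Hdac4, which has been reported elsewhere as a target of miR-155, read 38.4 in the miR-155 array against 48.03 in the empty-vector array, a log2 ratio of −0.32 (local SD 0.54). Hdac5 was at −0.33, Hdac9 at 0.10, and Hdac7 was below the floor at 22.7 with miR-155 and 25.2 with empty vector. In its brightest probeset the Hdac4 difference is smaller than its local SD. A further Hdac4 probeset read 19.7 with miR-155, which is below the floor, and 44.1 with empty vector. Another was below the floor on both arrays and went the other way, at 16.7 with miR-155 and 7.10 with empty vector. Of class IIb, Hdac10, a polyamine deacetylase, had the lowest ratio of the Hdac genes, 71.6 with miR-155 against 102 with empty vector (−0.51, local SD 0.36), and the tubulin deacetylase Hdac6 was at −0.26. Hdac11, the only class IV enzyme, was below the floor, at 16.4 in the miR-155 array and 2.12 in the empty-vector array.

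Among the sirtuins, ratios lay on both sides of 0. Of 7 on the array 6 were kept, 4 with a ratio above 0, beside 42% of all genes kept. The class median was 0.043. The NAD-dependent nuclear deacetylase Sirt1, which acts on histones, p53 and NF-κB, read 269 in the miR-155 array and 269 in the empty-vector array (log2 ratio 0.0023). Sirt7, a nucleolar enzyme, read 341 with miR-155 and 322 with empty vector (0.08), and Sirt6, a nuclear deacetylase of H3K9, read 33.0 with miR-155 and 40.9 with empty vector (−0.31, local SD 0.57). These 3 nuclear enzymes differed by less than 1 local SD.

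Sirt2, which is mainly cytosolic, had the highest ratio of the deacetylases kept by the filter, at 198 in the miR-155 array against 148 in the empty-vector array (1.34-fold higher, log2 ratio 0.42, local SD 0.27). It had no further probeset. Of the mitochondrial sirtuins, Sirt3 was at 0.19 and Sirt5, a desuccinylase, at −0.29, but the further probeset of Sirt5 gave 0.38. Sirt4 was left out by the filter, at 6.02 with miR-155 and 27.4 with empty vector. The direction of Sirt5 thus depends on the probeset read.

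The acetyltransferases had 1 member past the 1.5-fold line and 1 just short of it, and both were lower in the miR-155 array. All 8 Kat genes were kept, 5 with a ratio below 0, beside 58% of all genes kept. The class median was −0.23. Kat6b, a MYST enzyme that acetylates H3K23 and sits in a BRPF complex, read 34.4 in the miR-155 array and 59.9 in the empty-vector array (1.74-fold lower, log2 ratio −0.80, local SD 0.54). Its other 2 probesets were far below the floor. Its paralogue Kat6a read 163 with miR-155 and 212 with empty vector (−0.38, local SD 0.28). Kat6b lay −1.44 local SDs from genes of like signal, so its difference is inside the scatter of dim genes.

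Kat2a, also called GCN5, the acetyltransferase of the SAGA and ATAC complexes, read 300.2 in the miR-155 array and 449 in the empty-vector array. Its log2 ratio of −0.58 stopped just short of the 1.5-fold line. Its further probesets were at 181 with miR-155 against 248 with empty vector (−0.45) and at 84.9 with miR-155 against 93.5 with empty vector (−0.14). All 3 probesets were lower in the miR-155 array, by unequal amounts. Kat2b, or PCAF, which can take its place in both complexes, read 261 with miR-155 and 255 with empty vector (0.03). Kat14, an ATAC subunit, was at −0.42, with −0.30 in its further probeset above the floor.

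The remaining MYST enzymes were level. Kat5, or TIP60, read 206 in the miR-155 array and 218 in the empty-vector array. Kat7, the HBO1 enzyme of H3K14, read 417 in each (log2 ratio 0.0017). Kat8, or MOF, which acetylates H4K16, was at 0.14, the highest ratio of the class.

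Among the Kmt lysine methyltransferases, Kmt5a stood out. All 8 Kmt genes were kept, and 6 had a ratio below 0, beside 58% of all genes kept. The class median was −0.22. Kmt5a, also called SET8 or PR-Set7, places the first methyl group on H4K20 and is needed for chromosome compaction and genome stability. It read 249 in the miR-155 array and 476 in the empty-vector array (1.91-fold lower, log2 ratio −0.93, local SD 0.21), which at −4.21 local SDs was the member furthest from genes of like signal. Its further probeset above the floor read 209 with miR-155 and 280 with empty vector (−0.42). Both probesets were lower in the miR-155 array, and the second showed less than the first. The mean over its probesets above the floor was −0.68, and over all its probesets −0.30, which is under 1.5-fold. The latter mean takes in probesets below the floor on both arrays that went opposite ways. These read 2.41 with miR-155 against 10.8 with empty vector, and 7.17 with miR-155 against 1.43 with empty vector. The enzymes that add further methyl groups at the same residue were level, Kmt5b at 0.04 and Kmt5c at −0.12, and the further probesets of Kmt5b gave −0.41 and 0.21.

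In the MLL family of H3K4 methyltransferases, Kmt2d had the only ratio above 0 by brightest probeset, and no gene reached 1.5-fold. Kmt2a was at −0.11, Kmt2b at −0.31, Kmt2c at −0.31 and Kmt2d at 0.25. Kmt2a had a dimmer probeset at −0.74 (27.9 with miR-155 against 46.7 with empty vector), and the 3 further probesets of Kmt2c lay between −0.02 and 0.22. Kmt2e, or MLL5, a SET-domain protein with little known enzyme activity, read 287 in the miR-155 array and 410 in the empty-vector array (1.43-fold lower, log2 ratio −0.51, local SD 0.21). Its other 3 probesets above the floor gave −0.35, 0.02 and 0.19. The Kmt2e difference was largest in its brightest probeset, and the others lay on both sides of 0.

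The Setd genes included enzymes lower and higher in the miR-155 array. All 8 were kept, 6 with a ratio below 0, beside 58% of all genes kept. With array medians equalised 4 were below 0, beside 45.1% of all genes kept. The median of −0.12 was −0.04 under that scaling. Setd2, the enzyme that trimethylates H3K36 in transcribed genes, had the lowest ratio, 187 with miR-155 against 258 with empty vector (1.38-fold lower, −0.46, local SD 0.25), and no further probeset. Setd1a, the catalytic subunit of a SET1 complex that methylates H3K4, was at −0.42, and its paralogue Setd1b at −0.24, with −0.09 in the further probeset.

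Setd4 had the highest ratio of the class, at 64.5 in the miR-155 array against 44.9 in the empty-vector array (1.43-fold higher, log2 ratio 0.52, local SD 0.44). Its further probeset read 46.0 with miR-155 and 32.2 with empty vector (0.51). The probesets of this dim gene matched closely, but its ratio stayed under 1.5-fold. Setd7, which monomethylates H3K4 and several other proteins, was at 0.19, while Setd3, the actin histidine methyltransferase, was at −0.07, Setd5 at −0.02 and Setd6 at −0.16. Setd5 had a dimmer probeset at −0.72 (33.8 with miR-155 against 55.7 with empty vector). Over the Kmt2 (Kmt2e included), Setd1 and Setd7 genes together, grouped as H3K4 methyltransferases, 6 of 8 had a ratio below 0. That stands beside 58% of all genes kept, and the median of the 8 was −0.27.

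The arginine methyltransferases were the most uniform class, with an SD between genes of 0.11, beside 0.42 over all genes kept. The robust SDs were 0.11 and 0.26. Genes as bright as these vary less, with local SDs from 0.14 at Prmt1 to 0.30 at Prmt2, beside 0.14 to 0.59 at all members kept. Of 8 on the array 7 were kept, and the median was −0.11. All 7 had a ratio below 0, beside 58% of all genes kept, and 4 of them with array medians equalised, beside 45.1% of all genes kept. With quantile normalization 4 were below 0 too, beside 50.4% of all genes kept. Prmt1, which produces most asymmetric dimethylarginine, had the brightest probeset of all members, at 2169 in the miR-155 array and 2212 in the empty-vector array, a log2 ratio of −0.03 that turned to 0.05 and 0.03 under those scalings. Prmt5, the main symmetric enzyme, read 760 with miR-155 and 782 with empty vector (−0.04). These 2 enzymes differed by under 10%.

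Prmt9 had the lowest ratio of the arginine enzymes, at 139 in the miR-155 array against 178 in the empty-vector array (−0.35, local SD 0.28), and its further probeset gave −0.45. Prmt6, which methylates H3R2, was at −0.12 and −0.50 in a dimmer probeset, and Prmt7 was at −0.11. Prmt3 was at −0.16 with 0.21 in the further probeset, and Prmt2 at −0.03 with 0.35. Prmt8, an enzyme of the brain, was left out by the filter at 1.26 with miR-155 and 1.32 with empty vector.

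The demethylases had the extremes in both directions and the largest SD between genes of the 7 classes, 0.42, beside 0.42 over all genes kept. By robust SD they were not the widest, at 0.35 beside 0.36 for the Kat class, 0.36 for the Sirt class and 0.26 over all genes kept. Of 18 Kdm genes 16 were kept. Beside 58% of all genes kept below 0, the Kdm genes had 8 of 16 on each side. Their median of 0.0065 was 0.08 and 0.07 under the 2 other scalings, but −0.07 in the upper 25% of signal, −0.21 with the mean of all probesets of a gene and −0.0024 with the mean of its probesets above the floor.

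Kdm7a, a JmjC enzyme with a PHD finger that removes methyl groups from H3K9 and H3K27, was the lowest of all members. It read 68.4 in the miR-155 array and 147 in the empty-vector array (2.15-fold lower, log2 ratio −1.10, local SD 0.36, distance −3.00 local SDs). Above the floor lay another 2 probesets, at 40.0 with miR-155 against 95.0 with empty vector (−1.25) and at 35.9 with miR-155 against 71.8 with empty vector. All 3 probesets thus showed about the same difference. Its remaining 2 probesets were far below the floor, and the mean over all its probesets was −0.36. The other enzymes of its subfamily, looked at after the Kdm7a value was seen, were Phf8 at 414 with miR-155 against 278 with empty vector (0.58) and Phf2 at 96.8 with miR-155 against 118 with empty vector (−0.28), so the 3 relatives did not share a direction.

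**Figure D3:**
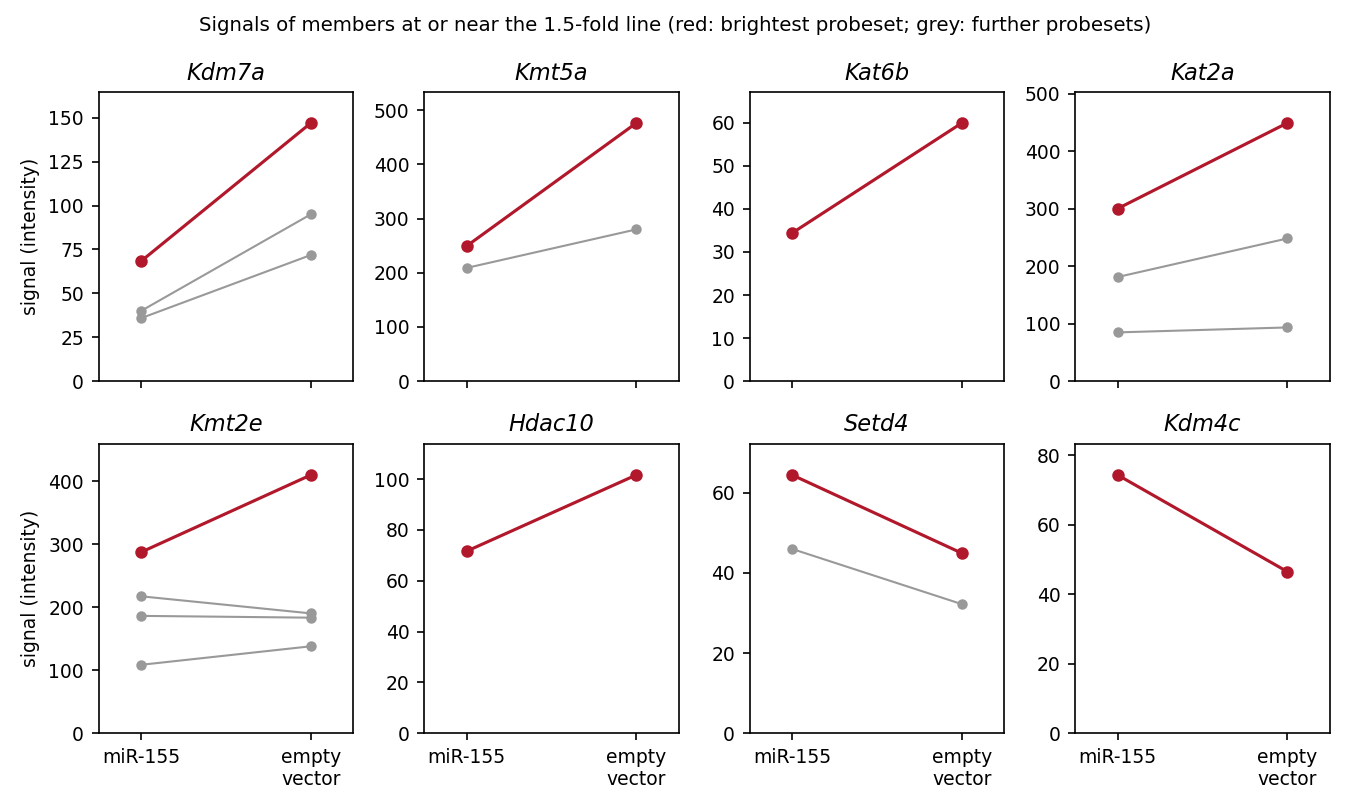
Signal (linear intensity) on the miR-155 and the empty-vector array for the 8 members outside or within 0.1 log2 of the 1.5-fold lines. Red lines are the brightest probesets and grey lines the further probesets at or above the floor on both arrays; Kdm7a was lower in the miR-155 array in all 3 lines, and those of Kmt2e ran both ways.

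The enzymes of the Kdm4 genes remove methyl groups from H3K9 and H3K36. All 3 Kdm4 members kept had a ratio above 0, beside 42% of all genes kept. Kdm4c was the only member past 1.5-fold in that direction, at 74.4 with miR-155 against 46.5 with empty vector (log2 ratio 0.68, local SD 0.42). Kdm4b read 37.2 with miR-155 and 26.6 with empty vector (0.48, local SD 0.59). Kdm4a read 123 with miR-155 and 112 with empty vector (0.14, local SD 0.32). None of these 3 lay 2 local SDs from genes of like signal, Kdm4b and Kdm4c have no further probeset, and none of Kdm4a reached the floor. With an offset of 50 on both signals Kdm4c was at 0.37. Kdm4d was left out by the filter, at 1.10 with miR-155 and 5.41 with empty vector.

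The H3K4 demethylases Kdm5c and Kdm5d had ratios above 0, at 0.43 for Kdm5c and 0.24 for Kdm5d, and Kdm5a was at −0.09. Kdm5c has 8 further probesets, of which 1 reached the floor on both arrays and gave −0.37, so its direction differs between probesets. Kdm5b was left out by the filter, at 12.7 in the miR-155 array and 8.89 in the empty-vector array. Apart from Kdm7a, the H3K27 demethylases lay within 1.5-fold, Kdm6b at 91.2 with miR-155 against 81.9 with empty vector (0.16) and Kdm6a at −0.31. The further probeset of Kdm6b gave 0.02, and a probeset shared with another annotated transcript gave −0.47.

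The H3K9 demethylases Kdm3a and Kdm3b were at −0.36 and −0.32, with 0.25 in a dimmer probeset of Kdm3b. The flavin-dependent LSD enzymes were within 1.5-fold, Kdm1a at 774 in the miR-155 array against 729 in the empty-vector array (0.09) and Kdm1b at −0.19. The H3K36 demethylase Kdm2a was at 0.11, Kdm2b, a subunit of a variant Polycomb complex, at −0.07 with −0.47 in its further probeset, and Kdm8 at −0.23.

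Agreement between probesets of a gene was limited at these small ratios. Of the 62 members 26 had at least 1 further probeset at or above the floor on both arrays, 33 in all. In 18 of these 26 every such probeset lay on the same side of 0, and in 8 they lay on both sides. The SD of a ratio estimated from differences between probesets of a gene was 0.31 over the members and 0.20 over all genes kept that had them (6143 further probesets of 3894 genes).

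The classes were also grouped by reaction, going by symbol alone, so the lysine methyltransferases hold all Kmt and Setd genes, with Setd3 and Kmt2e among them. The median log2 ratio was −0.12 for the 15 deacetylases kept and −0.23 for the 8 acetyltransferases. It was −0.14 for the 16 lysine methyltransferases and 0.0065 for the 16 demethylases. Lysine and arginine methyltransferases together had a ratio below 0 in 19 of 23, and demethylases in 8 of 16, beside 58% of all genes kept. With array medians equalised these counts were 14 of 23 and 7 of 16, beside 45.1%. With 1 array per group, no difference between classes was tested.

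Chromatin genes that the symbol rule leaves out were grouped in 7 further lists. Of their 132 genes 126 were kept, with 5 higher by 1.5-fold or more, beside 5.32% of all genes kept, and 8 lower, beside 5.99%. Their median was −0.13, beside −0.12 for the members and −0.048 for all genes kept. The largest difference was in Jarid2, a subunit of Polycomb repressive complex 2 and a reported miR-155 target, at 58.9 in the miR-155 array against 201 in the empty-vector array (−1.77). Its catalytic enzyme Ezh2 (−0.02) and core subunits Eed (−0.08) and Suz12 (−0.06), named after their values were seen, differed by under 10%. Its other catalytic enzyme, Ezh1, read 93.3 with miR-155 and 72.5 with empty vector (0.36), with 0.51 in its further probeset.

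Of 18 other histone methyltransferases kept (median 0.003), Smyd4 was at 115 with miR-155 against 59.0 with empty vector (0.96, with 0.75 in its further probeset), Smyd1 at −0.72 and the H3K9 enzyme Suv39h2 at −0.68, while further probesets of Smyd1 and Suv39h2 gave 0.26 and 0.37. Of 12 other acetyltransferases (median −0.12), the circadian factor Clock was at 88.8 with miR-155 against 166 with empty vector (−0.90). Of 13 other demethylases and hydroxylases (median 0.07), Hspbap1 was at 65.0 with miR-155 against 42.0 with empty vector (0.63, local SD 0.46). Jmjd4 was at 35.2 with miR-155 against 58.7 with empty vector (−0.74, local SD 0.54), and Hr read 34.6 with miR-155 and 20.1 with empty vector. Smyd1 and Suv39h2 thus had probesets in both directions, and Smyd4 did not.

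Subunits of the complexes in which these enzymes work included genes past 1.5-fold in both directions. Of 31 deacetylase complex subunits (median −0.16), the NuRD remodeller Chd3 was at 72.5 in the miR-155 array against 29.3 in the empty-vector array (1.31, local SD 0.53) and Ing2 of the SIN3 complex at −0.59. Of 33 acetyltransferase complex subunits (median −0.13), Kansl1, a partner of Kat8, was at 79.2 with miR-155 against 151 with empty vector (−0.93) and Tada2b, a partner of Kat2a in SAGA, at 115 with miR-155 against 185 with empty vector (−0.69). By brightest probeset none of the 12 subunits of the MLL and SET1 complexes reached 1.5-fold (median −0.10, from −0.22 to 0.46). Of all genes kept 5.32% were that much higher and 5.99% lower. Psip1 of these complexes was at −0.06, but its 2 further probesets above the floor gave −1.17 and −0.21. Of 9 genes of Polycomb repressive complex 2 (median −0.06), Phf1 was the one past that line besides Jarid2. Phf1 is dim, at 41.3 with miR-155 against 27.0 with empty vector (0.61, local SD 0.58).

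**Figure D4:**
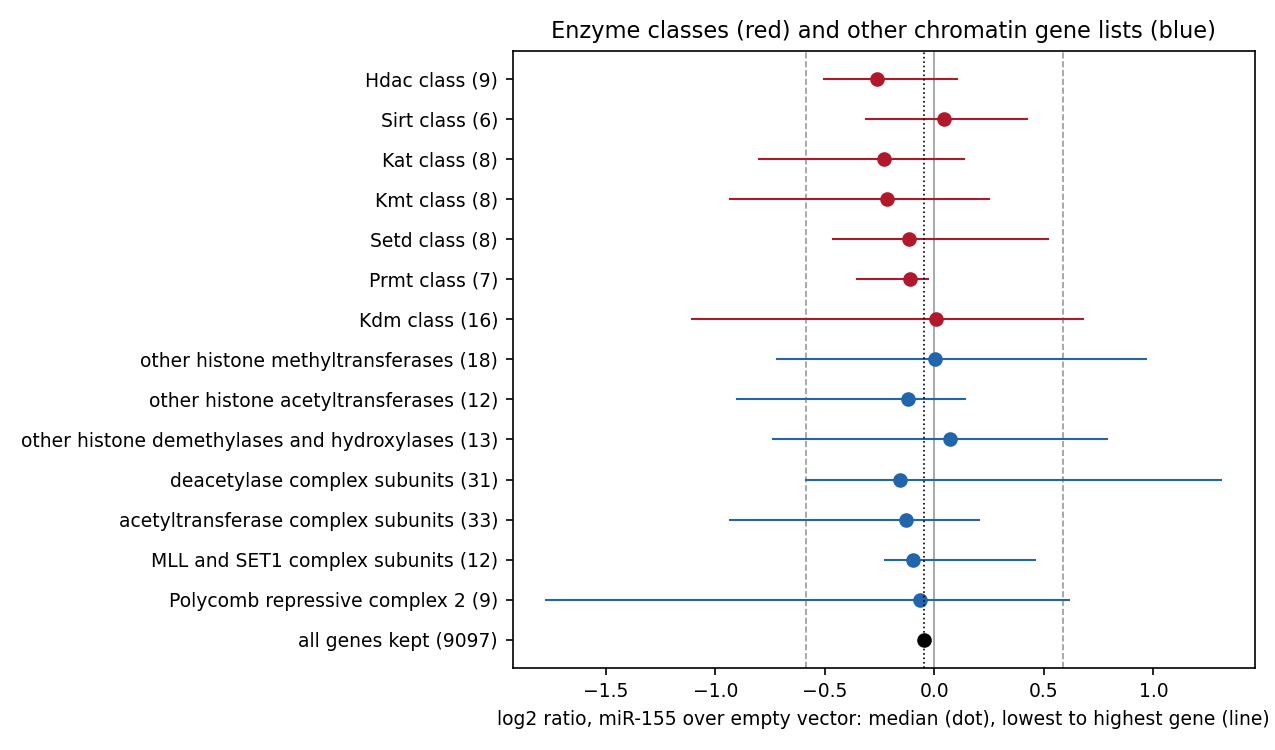
Median log2 ratio, miR-155 over empty vector (dots), and the range from the lowest to the highest gene (lines) for the 7 enzyme classes (red), 7 lists of other chromatin genes (blue) and the median of all 9097 genes kept (black, dotted line). Numbers of genes are in brackets and dashed lines mark 1.5-fold; the class and list medians lie between −0.26 and 0.07, and that of the Kdm class changes sign with the filter and the choice of probeset.

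The promoters of the members were mostly rich in CpG dinucleotides. RefSeq promoter windows of 300 bases were matched for 56 of the 68 members, 77 windows in all. Their median GC content was 61.3% and their median CpG count 21, beside 52.7% and 7 over all 32851 windows. The ETS-type motif CCGGAAG, searched on both strands, was in 16.9% of the members' windows and 8.86% of all windows, CCAAT in 41.6% and 37.4%, and TATAAA in 5.19% and 13.6%. These shares describe the letters and say nothing of binding. The windows of the pair of members with the largest distances from genes of like signal are shown in lower case, with CCGGAAG and CCAAT on either strand in capitals. That of Kdm7a is chr6:39206724-39207023 on the minus strand, with 65 CpG and 1 ETS-type match. The first of the 3 windows of Kmt5a is chr5:124439680-124439979 on the plus strand, with 18 CpG and 4 CCAAT matches.
Kdm7a: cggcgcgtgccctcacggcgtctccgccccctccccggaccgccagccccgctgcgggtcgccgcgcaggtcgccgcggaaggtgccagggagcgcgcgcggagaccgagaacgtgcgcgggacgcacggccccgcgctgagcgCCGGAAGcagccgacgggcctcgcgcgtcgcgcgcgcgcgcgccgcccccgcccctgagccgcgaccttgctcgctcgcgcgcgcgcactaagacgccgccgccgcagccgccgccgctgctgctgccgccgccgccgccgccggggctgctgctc
Kmt5a: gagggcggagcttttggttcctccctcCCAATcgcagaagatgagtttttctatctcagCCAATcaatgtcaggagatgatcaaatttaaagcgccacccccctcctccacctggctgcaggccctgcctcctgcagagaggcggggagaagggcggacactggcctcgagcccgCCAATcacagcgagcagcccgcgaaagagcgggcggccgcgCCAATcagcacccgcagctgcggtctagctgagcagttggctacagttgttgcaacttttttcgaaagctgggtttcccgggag
The window of Kdm7a has a GC content of 82.7% and that of Kmt5a 59.7%. The other windows of Kmt5a, not shown, have a GC content of 80.3% with 51 CpG and of 61.7% with 9 CpG.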

How the data were processed

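The deposited series matrix holds 1 intensity per probeset and array on a linear scale. Per the labels' protocols, the arrays were labelled and hybridised by the manufacturer's procedures with RNA pooled from 5 clones per arm; how probesets were summarised and scaled, and any detection call, is not stated in the labels or files used. Probesets were named by the platform annotation: 34945 had 1 symbol, 932 had several and were not used. All 68 member Entrez identifiers were in the RefSeq table of GRCm38.p6, with 0 changed symbols. The log2 ratio is log2 of the miR-155 intensity minus log2 of the empty-vector intensity as deposited, with no offset. No standard error or p-value was computed, because each group had 1 array, and the number of arrays limits the precision. Calls are folds of 1.5 and 2. Named are members past 1.5-fold or within 0.1 log2 of it, the highest, lowest and brightest of each class, and list genes past 1.5-fold; other members were added after their values were seen. The brightness of different probesets does not rank mRNA levels. Members, lists and tests were chosen with earlier results of these data known. The alternatives were other filters, an offset, other probeset rules and other scalings. The steps were tested on simulated data. Python 3.11.15, pandas 2.3.3, numpy 2.4.6 and matplotlib 3.10.9 were used.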

Additional observations from a re-analysis of the deposited data

Results flagged for a closer look

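Hdac11, the class IV deacetylase, was left out of the comparison by the filter on dim genes, but its probeset read 16.4 on the miR-155 array, above 2.12 on the empty-vector array. Both readings are below the signal floor of 25.8. Its other probeset read 3.11 on the miR-155 array and 10.2 on the empty-vector array, the opposite direction.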

How the results depend on the processing

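The counts of members past 1.5-fold depended on the filter and on the probeset rule. The main setting gave 1 higher and 3 lower of 62, beside 5.32% and 5.99% of all genes kept. In the upper 25% of signal (22 members) 0 were higher and 1 lower, beside 2.42% and 2.09% of all genes. With no filter (68 members) 2 were higher and 5 lower, beside 17.1% and 21.2%. With the mean of all probesets of a gene 3 were higher and 7 lower, beside 7.84% and 10.8%. With an offset of 50, 0 were higher and 2 lower, beside 2.15% and 2.07%. With array medians equalised 2 were higher, beside 6.78%. In the upper 25% of signal the Kmt median was −0.72, from 2 members, and with the mean of all probesets the Kdm median was −0.21. By construction these settings leave fewer genes, add dim readings or shrink dim ratios; beyond that the cause was not tested. Taking the mean of probesets at the floor on both arrays, chosen after seeing the data, left 1 higher and 3 lower. Of all genes 4.02% were higher and 4.61% lower in that setting. Of 90 counts and medians under 9 alternatives, 80 stayed within 1.5 times the count or within 0.20 of the median. For the 21 named members 14 of 178 ratios moved further than 0.20, and none of those past 1.5-fold changed sign. Part of both counts was fixed in advance and is no sign of stability. No member kept had a reading below the floor, so raising such readings to it changed no member value. A filter cannot change the ratio of a single gene, and equalising array medians adds 0.08 to every ratio, less than the 0.20 allowed. The median of all genes moved by at most 0.08 under any scaling, and the share of all genes below 0 was 45.1% with array medians equalised, against 58% as deposited. No paired analysis was possible because each group had 1 array. Dim signal limits Kat6b, Kdm4b and Kdm4c, and also Sirt6, Hdac8, Hdac4 and Sirt3, whose local SDs are above 0.5. Of the list genes named, it limits Phf1, Jmjd4, Chd3 and Hr in the same way.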
